A study of Mus musculus with 57 samples.

Results

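Trimethylation of histone H3 at lysine 27 (H3K27me3) was compared between 6 h and 12 h of Wnt pathway activation in mouse epiblast stem cells (EpiSCs). The members were the regions of the H3K27me3 peak lists at these times, 1 ChIP-seq library each, after removal of regions that shared a base with a region of either input library, which was sequenced without an antibody. Of 5628 listed regions 183 overlapped an input region, and 5445 were used, 2478 at 6 h and 2967 at 12 h. The 32 peak lists of the series, from 57 samples, hold 591931 peaks in all.

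The cells, derived from the epiblast of mouse embryos and kept in Fgf, Activin A and IWP2, a compound that blocks Wnt secretion, lacked Wnt3 (Wnt3KO). For both times IWP2 was withdrawn and CHIR99021 (Chiron in the labels), a GSK3 inhibitor that activates the pathway inside the cell, was added at 3 µM. Further H3K27me3 lists from Wnt3KO cells were a pair of replicates at 0 h in IWP2, 1 library after 5 h of Wnt3a protein at 125 ng/mL, and 1 at 72 h of CHIR99021. Each time of H3K4me3 and of H3K27ac in Wnt3KO cells had 1 library, at 0 h (labelled as not stimulated) and after 6, 12 or 72 h of CHIR99021. Ring1b lists came from Wnt3KO cells at 0 h (a pair of replicates), 5 h of Wnt3a and 72 h. Lists of open chromatin by ATAC-seq came from wild-type EpiSCs at 0 h and at 48 h of CHIR99021, so they differ from the other lists in genotype. The labels do not say whether the Wnt3KO cells were 1 clone, or whether the replicates were separate cultures.

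H3K27me3 is set by Polycomb repressive complex 2 and marks silent genes, above all those of developmental regulators. Ring1b is a subunit of Polycomb repressive complex 1, which is recruited in part through H3K27me3. H3K4me3 marks promoters, and a promoter with both H3K4me3 and H3K27me3 is called bivalent, a state typical of developmental genes in pluripotent cells. H3K27ac sits on active promoters and enhancers and, being on the same residue, cannot share a histone tail with H3K27me3. ChIP-seq of a population of cells cannot tell marks on the same chromatin from marks in different cells.

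With 1 library at each time there was no test of the difference between 6 h and 12 h. Shares are given with 95% Wilson intervals and differences with 95% Newcombe intervals, which cover counting error only and treat neighbouring regions as independent, and the 0 h replicates serve as the only measure of spread between libraries. The depth behind each region could be read from the lists. The deposited fold and p value together gave a whole number of fragments at the summit, the point of highest pileup, for 99.9% of the regions at each time. The genome-wide background, the number of fragments at an average position, which is proportional to depth, was 1.02 at 6 h and 0.807 at 12 h, so the 6 h library was 1.26 times deeper. It was 2.82 and 1.41 in the 0 h replicates, 1.78 at 72 h and 2.68 after Wnt3a. The names of the peaks show that the 6 h and 12 h lists of all 3 histone marks were made in 1 processing folder. The second 0 h replicate and the 72 h list came from another folder, and the first 0 h replicate, the Wnt3a list and the inputs from yet another. A contrast of 6 h or 12 h with 0 h or 72 h therefore cannot be told apart from a contrast of folders.

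The shallower 12 h library listed more regions than the 6 h library, and about 1 region in 2 was listed at both times. Of the 6 h regions, 1393 of 2478 shared at least 1 base with a 12 h region (56.2%, interval 54.3% to 58.2%). In the other direction, 1407 of 2967 12 h regions were listed at 6 h (47.4%, 45.6% to 49.2%). The remaining 1085 regions (43.8%) were listed at 6 h only and 1560 (52.6%) at 12 h only. The 0 h replicates overlapped by 82.7% of the first, which was the deeper, and by 50.9% of the second. The share of 6 h regions found at 12 h was thus lower than the first of these values and higher than the second, and that of 12 h regions found at 6 h was below both. The 0 h lists were longer, with 4106 and 6064 regions, and differed more in depth. Their shares are therefore not a like measure for 6 h and 12 h. The 72 h list, from the same folder as the second 0 h replicate, shared 68.2% of its regions with it. H3K4me3 lists of Wnt3KO cells at 6 h and 12 h overlapped by 94.9% and 92.8%, and H3K27ac lists by 76.9% and 66.1%.

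Regions of 1 time often lay beside regions of the other, those of 6 h more often than those of 12 h. Of the 1085 regions listed at 6 h only, 732 (67.5%, 64.6% to 70.2%) were within 5 kb of a 12 h region. Of the 1560 listed at 12 h only, 803 (51.5%, 49.0% to 53.9%) were within 5 kb of a 6 h region. That left 353 regions at 6 h and 757 at 12 h with no region of the other list within 5 kb, 14.2% and 25.5% of the lists. Nearly all neighbouring ones also lay within 5 kb of a region of the second 0 h replicate, 722 of 732 and 791 of 803.

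**Figure D1:**
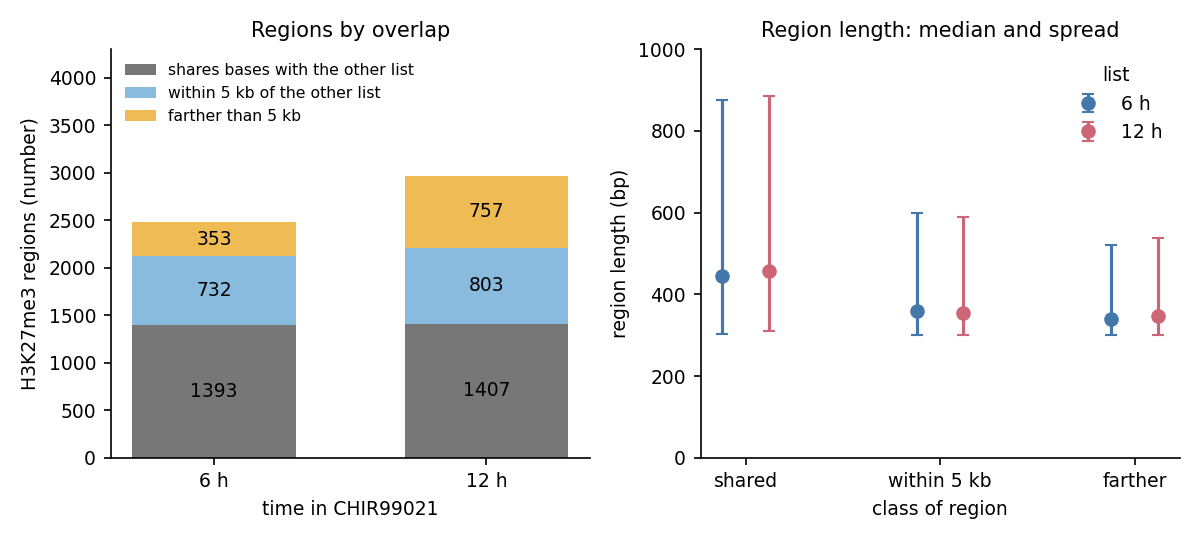
Left, number of H3K27me3 regions at 6 h and 12 h of CHIR99021 that share bases with the other list, lie within 5 kb of it, or lie farther away. Right, median region length in bp with the 10th to 90th percentile as bars. The 12 h list has 757 regions far from any 6 h region against 353 in the reverse direction, and shared regions are longer at both times.

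Regions within 5 kb of each other were next merged into domains, which gave 1331 at 6 h and 1652 at 12 h. Domains of 4 or more regions were mostly found at both times, 145 of 146 at 6 h and 144 of 147 at 12 h. Single regions recurred less, 50.3% (46.8% to 53.7%) of those at 6 h and 35.6% (32.7% to 38.6%) of those at 12 h. Between the 0 h replicates the shares for single regions were 66.8% and 33.4%, and for domains of 4 or more 100% and 95.8%. A domain counted as found when its merged span, gaps between regions included, shared a base with a merged span of the other list. Domains of more regions thus had more room to be found.

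The regions were short at both times, a result that the narrow-peak setting of the caller bears on. The median length was 393 bp (384 to 403) at 6 h and 388 bp (383 to 394) at 12 h, and the lists covered 1167 and 1376 kb. In all 537 kb were covered at both times, which is 46.0% of the 6 h and 39.0% of the 12 h length. Shared regions had a median of 445 bp at 6 h and 457 bp at 12 h, and regions of 1 time 350 bp in both lists. Regions of exactly 300 bp, the length to which reads were extended, made up 8.33% and 6.40% of the shared regions and 19.3% and 21.0% of the others.

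The longest region at 6 h, chr15:98531178-98533610 (2433 bp, mm9), had 23 fragments at its summit at 6 h and 22 at 12 h, where its region was 1671 bp. It was also listed at 0 h in both replicates, with 25 and 28 fragments, and at 72 h with 21. The longest at 12 h, chr9:21047621-21049514 (1894 bp), overlapped a pair of 6 h regions and had 16 fragments at 12 h and 15 at 6 h. It overlapped H3K4me3 at 0, 6, 12 and 72 h and was in all 6 H3K27me3 lists. Another of the longest at 12 h, chr2:25254690-25256395 (1706 bp), overlapped a 6 h region of only 365 bp. Its summit held 16 fragments at 12 h and 13 at 6 h, and it was listed at 0 h and 72 h too. The others among the longest 3 of each list were on chromosome 18 and were listed at both times. A 6 h region of 2080 bp and a 12 h region of 1878 bp overlapped each other, with 17 and 16 fragments. At the 6 h region of 1960 bp the summit held 27 fragments at 6 h and 19 at 12 h. These long regions thus recurred, while their listed ends moved.

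Stronger regions recurred more often. With each list cut into 4 equal parts by the authors' p value, 80.0% (76.6% to 82.9%) of the strongest part of the 6 h list were listed at 12 h, and 42.6% (38.7% to 46.5%) of the weakest. The same parts of the 12 h list gave 73.4% (70.1% to 76.5%) and 30.7% (27.5% to 34.1%) listed at 6 h. At the summit, regions of 12 h only had a median of 12 fragments against 15 for shared regions, and those of 6 h only 14 against 15. When fragments and background were scaled down to the depth of the 12 h library, 977 of 1085 6 h-only regions (90.0%) still passed the lowest −log10 p of the 12 h list, as did 94.2% of the shared 6 h regions. This scaling includes no sampling loss and uses the most lenient cutoff of the 12 h list. It cannot give the part of depth in the regions of 1 time, which was not tested.

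**Figure D2:**
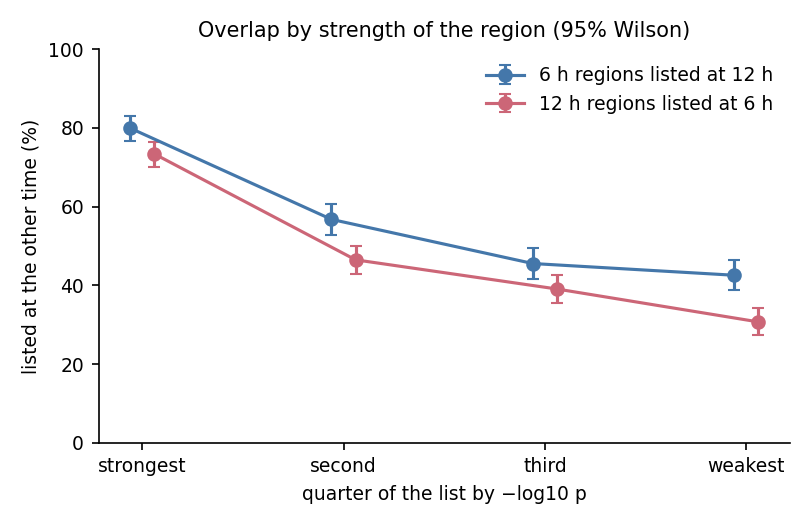
Share of H3K27me3 regions listed at the other time, in percent, for 4 equal parts of each list in order of the authors' −log10 p, with 95% Wilson intervals. Shares fall from 80.0% to 42.6% for 6 h regions and from 73.4% to 30.7% for 12 h regions.

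At the regions that the lists shared, the pileup over background was slightly higher at 12 h, in the shallower library. A total of 1173 pairs matched one to one, with a median distance of 103 bp between summits and a median of 16 fragments at 6 h and 15 at 12 h. Their pileup over the genome-wide background, which was lower at 12 h, was higher at 12 h in 932 pairs and lower in 241, with a median log2 ratio of 0.25 (10th to 90th percentile −0.15 to 0.73), or 1.19 times. Only 22 pairs were at least 2 times higher at 12 h, and 0 were at least 2 times lower. Over the local background the median log2 ratio was 0.14, with 772 of 1173 higher at 12 h. Between the 0 h replicates, 2026 matched pairs gave a median log2 ratio of 1.00 over the genome-wide background (second over first, 2.00 times) and 0.52 over the local one. The 2.00 times equals the ratio of the 0 h genome-wide backgrounds, and in both comparisons the shallower library had the higher ratio. A pair needs a listed summit in both lists, with at least 8 fragments at 6 h as at 12 h. The part of that requirement in the higher ratio of the shallower library was not tested. As the 12 h library was the shallower, a change with time cannot be told apart from depth here. The 0 h replicates also differed in folder. With the pairs cut into 4 equal parts by summed pileup, the highest part had a median log2 ratio of 0.29, with 228 of 293 higher at 12 h, and the lowest part 0.22. In pairs with and without H3K4me3 at 12 h the median was the same, 0.25 (298 and 875 pairs), and in the 48 pairs with H3K27ac it was 0.14.

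The surroundings of these regions followed the same order. The caller's local background is the fragment density of the same library over 100 kb around the summit, so where it exceeds the genome-wide value it records how enriched the neighbourhood is. In the 853 pairs where it did so at both times, it was higher at 12 h relative to the genome in 798 and lower in 55 (median log2 ratio 0.18, 1.13 times). The 0 h replicates differed more, by a median log2 ratio of 0.47 (1.39 times) over 1669 such pairs, with the second replicate higher in 1600.

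**Figure D3:**
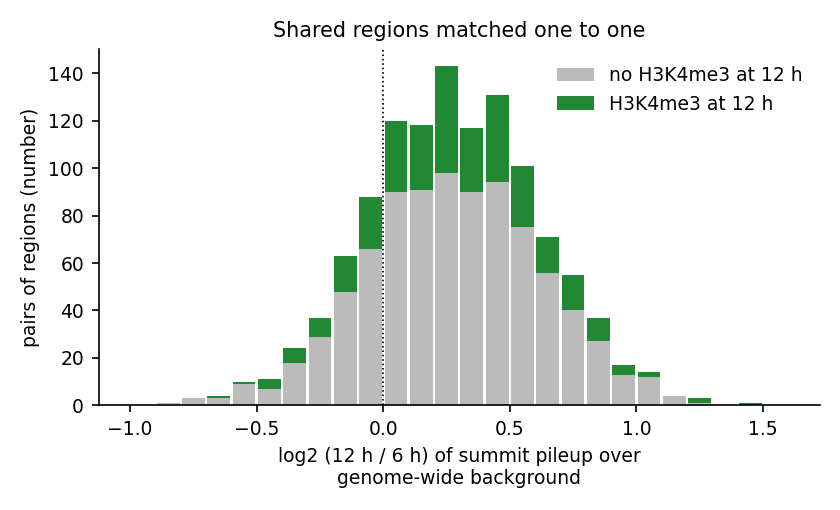
Number of shared region pairs (of 1173) by the log2 ratio, 12 h over 6 h, of fragments at the summit divided by each library's genome-wide background, split by H3K4me3 overlap at 12 h. The distribution centres on 0.25 in both groups, to the right of the dotted line at no difference, the 12 h library being the shallower.

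The 3 leading regions listed at every time all had higher counts at 12 h than at 6 h. One of them, chr7:25728410-25728900, held 33 and 32 fragments at 0 h, and 22, 28 and 16 after 6, 12 and 72 h. No H3K4me3, H3K27ac or Ring1b list held it. For chr4:133806158-133807098 the values were 31 and 30 before stimulation and 19, 28 and 18 after these times. It overlapped Ring1b at 0 h in both replicates and after Wnt3a, H3K4me3 at 0 h, and H3K27ac at 12 h. The widest rise of these was at chr5:37258108-37259561, with 27 and 33 fragments before stimulation and then 21, 35 and 20. These regions were picked by their fold at 12 h, and none of the 241 pairs that were lower at 12 h is among them.

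H3K27me3 regions overlapped H3K4me3 of the matched time more often at 12 h than at 6 h. At 6 h 462 of 2478 did (18.6%, 17.2% to 20.2%), and at 12 h 717 of 2967 (24.2%, 22.7% to 25.7%), a difference of 5.52 percentage points (3.34 to 7.68). The 0 h replicates against the 0 h H3K4me3 list gave 35.2% and 38.6%, a gap of 3.39 points (SD 2.40, n = 2), and the 72 h lists gave 33.7%. Both times were thus below 0 h and 72 h. The replicate gap rests on 1 H3K4me3 list, whereas the matched difference rests on the 6 h and the 12 h list. With 1 H3K4me3 list for both times, the difference was 1.69 points (−0.572 to 3.93) for the 12 h list, 2.35 (0.223 to 4.47) for the 6 h list, 2.44 for the 0 h list and 2.53 for the 72 h list, all smaller than the gap between replicates. At the 1407 shared 12 h regions, H3K4me3 was listed at both times in 286, at 12 h only in 76 and at 6 h only in 29.

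Both classes of region differed at matched times. In shared regions 22.5% at 6 h and 25.7% at 12 h overlapped the matched list (3.26 points, 0.0898 to 6.42). That interval treats the shared regions of both lists as separate samples, although they are the same places. With 1 H3K4me3 list for both times, shared regions differed by −0.793 (0 h list), −0.0814 (6 h), −1.26 (12 h) and 0.02 points (72 h). As shared regions of both lists are the same places, these differences are small by definition and are no test. The matched difference in shared regions came with a change of H3K4me3 list. Among the regions of 1 time, 149 of 1085 at 6 h (13.7%) and 355 of 1560 at 12 h (22.8%) overlapped the matched H3K4me3 list, 9.02 points apart (6.06 to 11.9). In the H3K4me3 list of unstimulated cells 18.6% of the 6 h-only and 25.8% of the 12 h-only regions were listed (7.22 points, 4.00 to 10.4). The 72 h H3K4me3 list gave 6.20 points (3.03 to 9.29). Regions farther than 5 kb from the other list differed most at matched times, 15.0% at 6 h and 25.1% at 12 h (10.1 points, 5.03 to 14.7). The sites listed at 12 h only were thus more often H3K4me3 sites than those listed at 6 h only, whichever of the 4 H3K4me3 lists was used. These lists are not independent, as 94.9% of the 6 h H3K4me3 regions were listed at 12 h. No gap between 0 h replicates is given for regions of 1 list, so the spread between libraries is not known for this class.

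**Figure D4:**
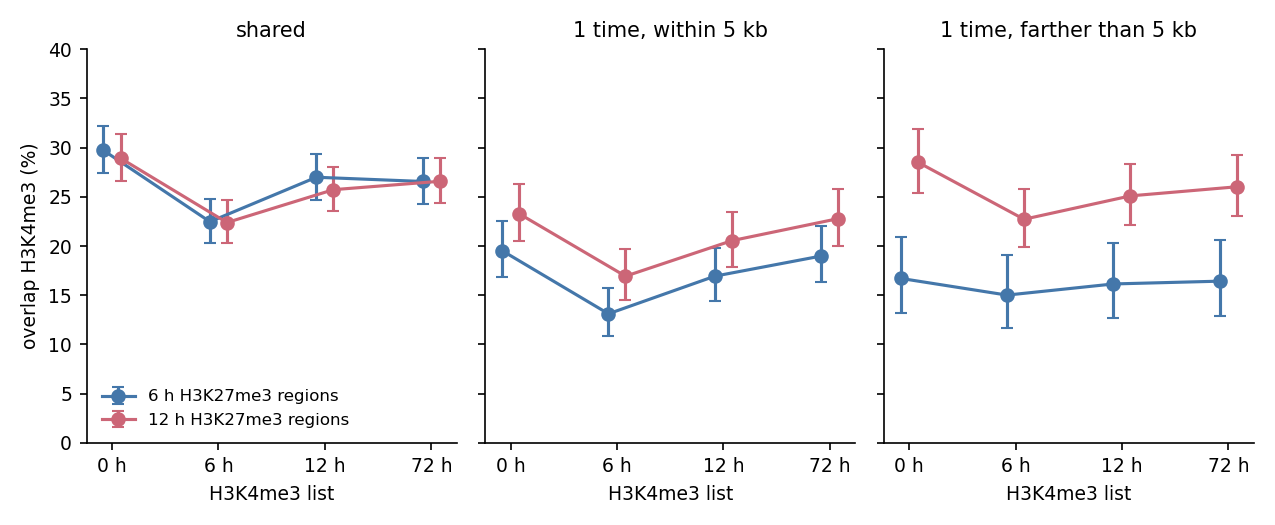
Percent of 6 h and 12 h H3K27me3 regions that overlap the H3K4me3 list of 0, 6, 12 or 72 h, by class of region, with 95% Wilson intervals. Shared regions of both lists are the same places, so their shares are alike by definition. Regions of 1 time overlap H3K4me3 more often when listed at 12 h, at 0 h (farther class, 28.5% against 16.7%) as at later times.

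Ring1b of Polycomb complex 1 was listed less often at the 12 h-only regions. It was present at 0 h in both replicates for 14.6% (12.6% to 16.8%) of the 6 h-only and 9.62% (8.25% to 11.2%) of the 12 h-only regions, a difference of −4.95 points (−7.56 to −2.43). Within 5 kb of the other list the difference was −3.63 points (−7.51 to 0.222) and farther away −0.89 (−3.50 to 1.11). Both intervals held 0, and the classes made up different shares of the 2 lists. In shared regions the shares were 21.4% and 21.9%. Open chromatin of wild-type cells at 0 h went the other way, with 13.8% of the 6 h-only and 19.6% of the 12 h-only regions (5.79 points, 2.90 to 8.60). Regions that were H3K4me3-positive but in neither Ring1b list at 0 h made up 8.76% of the 6 h-only and 17.0% of the 12 h-only regions. Regions with H3K4me3 also lay in less enriched surroundings. The local background was at least 2 times the genome-wide one at 9.48% of the 12 h regions with H3K4me3 and 28.1% of those without, and at 49.8% of those with Ring1b. At 6 h these shares were 6.49%, 24.9% and 40.6%.

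H3K27ac overlapped few H3K27me3 regions, 65 at 6 h (2.62%) and 89 at 12 h (3.00%), and the difference of 0.377 points had an interval that held 0 (−0.522 to 1.26). Of these, 62 of 65 and 86 of 89 also overlapped H3K4me3. The 0 h replicates gave 0.633% and 1.12% and 72 h gave 0.473%, so the matched overlap was higher at 6 h and 12 h. The H3K27ac list changed with time and folder as well. Against the 0 h H3K27ac list the 6 h and 12 h regions gave 1.33% and 1.35%. Against the 72 h H3K27ac list they gave 1.25% and 1.11%.

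The strongest regions of both lists were among those with active marks. The region with the highest fold at 12 h, chr19:5770939-5771492, held 87 fragments at 12 h (fold 48.5) and 99 at 6 h (fold 49.6). At the same place H3K4me3 held 128 fragments at 6 h and 118 at 12 h, and H3K27ac 84 and 114. In the second 0 h replicate of H3K27me3 it held 21 fragments, and the first replicate, the Wnt3a list and the 72 h list did not list it. The next, chr9:108984592-108985104, held 83 fragments at 12 h and 100 at 6 h, and no other H3K27me3 list held it. Its H3K4me3 pileups were 143 and 138 and its H3K27ac pileups 94 and 106 at 6 h and 12 h. Both overlapped Ring1b in the second 0 h replicate and at 72 h. Next came chr12:112916684-112917184, which held 53 fragments at 12 h and 57 at 6 h, with 114 and 126 for H3K4me3. The fourth, chr12:88224552-88225018, held 47 and 49, and 18 at 72 h. The fifth, chr1:77510601-77510972, held 34 at 12 h and 54 at 6 h. All 5 overlapped H3K4me3 and H3K27ac at 6 h and 12 h, and 4 of the 5 overlapped H3K27ac at 0 h. The first 4 were also the leading 12 h regions with H3K4me3, and the first 3 those with H3K27ac.

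Of the regions with a fold of at least 10, 27 of 73 at 6 h and 24 of 100 at 12 h overlapped H3K27ac, against 2.62% and 3.00% of the lists, and 39 and 48 overlapped H3K4me3. They recurred, 69 of 73 and 88 of 100 being listed at the other time. With regions that overlap H3K27ac left out, the H3K4me3 difference between 12 h and 6 h was 5.35 points (3.22 to 7.46). A set of 147 12 h regions was listed at 6 h and 12 h and in no other H3K27me3 list, 10.4% of the shared ones. Among them 31 (21.1%) overlapped H3K27ac, 41 (27.9%) H3K4me3 and 3 (2.04%) Ring1b in both 0 h replicates. In the shared regions listed at 0 h in both replicates and at 72 h these shares were 1.47%, 32.4% and 28.8%. Whether the first set reflects the time, the folder or the libraries cannot be told apart.

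Most regions of either time were already listed before stimulation. Of the shared regions, 71.9% (69.5% to 74.2%) at 6 h were in both 0 h replicates, against 44.4% of the 6 h-only and 40.6% of the 12 h-only regions. The difference of −3.85 points between the classes of 1 time (−7.67 to −0.0219) turned to 0.276 points with the second replicate alone. Its interval also held 0 with an overlap of 50% (−2.61 points) and with regions within 1 kb merged (−1.28 points). In at least 1 replicate the shares were 68.0% and 68.3%. At 72 h 43.3% of the shared 6 h regions were listed, and 20.9% of the 6 h-only and 24.3% of the 12 h-only regions, a difference of 3.37 points (0.116 to 6.56). That interval held 0 in 3 of 5 other settings, with 1.75 points (−1.08 to 4.52) for an overlap of 50%, 2.05 (−1.29 to 5.31) at a −log10 q of at least 5 and 2.54 (−0.733 to 5.75) without input removal. The class farther than 5 kb from the other list differed by more, with 13.9% and 22.6% listed at 72 h (8.71 points, 3.81 to 13.2) and 48.7% and 57.3% in a 0 h replicate (8.61 points, 2.31 to 14.8). Regions in no other H3K27me3 list numbered 334 of 1085 (30.8%) at 6 h only and 465 of 1560 (29.8%) at 12 h only. Those had few other marks, with H3K4me3 at 6.89% and 9.25% and Ring1b in both 0 h replicates at 0.599% and 1.08%.

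**Figure D5:**
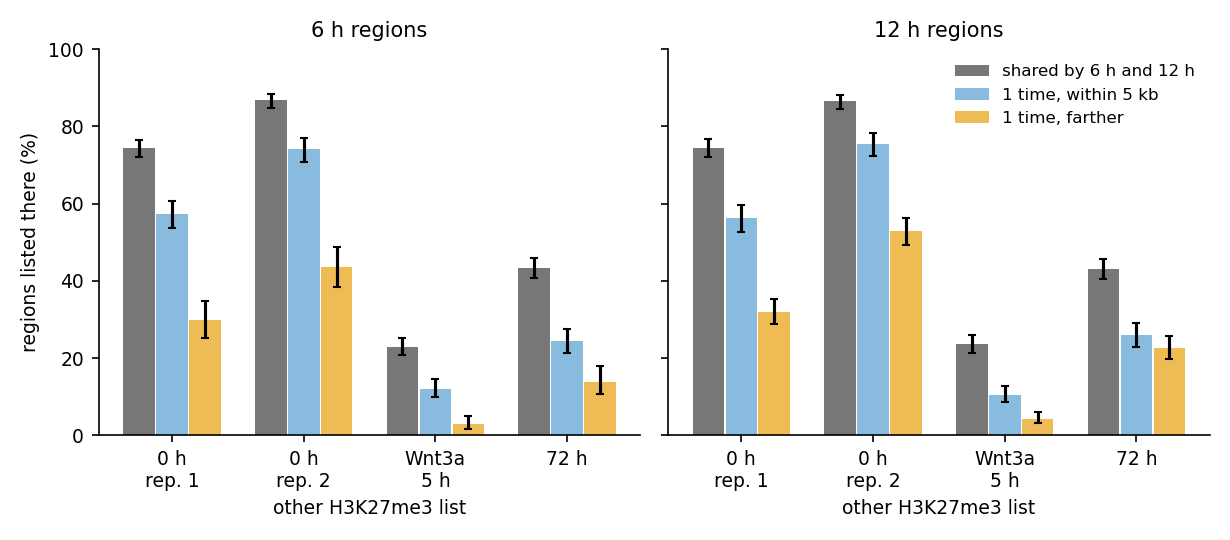
Percent of 6 h regions (left) and 12 h regions (right) listed in each other H3K27me3 list, by class, with 95% Wilson intervals. At both times shared regions are listed most often and regions far from the other list least often, and the Wnt3a list, of 796 regions, holds few of any class.

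Followed from 0 h, 3396 regions of the first replicate were also in the second. Of these 40.3% (38.6% to 41.9%) were listed at 6 h, 44.9% (43.2% to 46.6%) at 12 h and 28.6% at both times. Another 43.5% were in neither list, and 416 of them (12.2% of 3396) were listed again at 72 h. The median length at 0 h was 882 bp for those found at both times and 442.5 bp for those found at neither. Regions absent at both times were thus shorter. The 72 h library, deeper than both and from another folder, listed 39.5% of the 3396. The parts of depth, folder and time in these shares were not tested. In all 6 H3K27me3 lists 212 regions (8.56%) of 6 h and 227 (7.65%) of 12 h were held.

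The leading regions of 1 time showed each of these patterns. At 6 h only, chr13:59871310-59871726 held 21 fragments and overlapped H3K4me3 and H3K27ac at 0, 6, 12 and 72 h, and no other H3K27me3 list held it. The next 3 held 20 fragments each and were listed at 0 h in both replicates. Of them chr1:191996493-191997151, with 25 and 27 fragments at 0 h, lay 0.26 kb from a 12 h region and overlapped Ring1b at 0 h. The second, chr11:101825853-101826343, with 28 and 28 fragments at 0 h and 15 at 72 h, had no 12 h region within 650.8 kb. The third, chr15:36099201-36099723, with 21 and 19 at 0 h and 13 at 72 h, lay 0.445 kb from one. Among the 4 only the first carried H3K4me3.

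At 12 h only, chr13:54865277-54866009 led with 24 fragments and was in no other list of any mark used here. The next, chr14:47451236-47451568, held 22 fragments and overlapped H3K4me3 at 0, 6, 12 and 72 h and H3K27ac at 6 h and 12 h. The region chr10:80393392-80393887 held 20 fragments, 26 and 25 at 0 h, overlapped H3K4me3 at every time and lay 1.25 kb from a 6 h region. At chr3:108338406-108339189 the summit held 20 fragments at 12 h, 13 in the second 0 h replicate and 15 at 72 h. The 6 h library, deeper than that of 12 h, did not list these places, and its fragments there are not in the lists.

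Chromosome X stood apart in having no overlap. It held 34 regions at 6 h and 27 at 12 h, and 0 of 34 were listed at 12 h, which allows a share of up to 8.82% (3 counts of the total, here in place of a Wilson limit). None of the 27 at 12 h was listed at 6 h (up to 11.1% by the same limit). On the autosomes 44.1% (chromosome 3) to 67.4% (chromosome 10) of 6 h regions and 37.6% (chromosome 17) to 57.6% (chromosome 15) of 12 h regions were shared. Of the 34 X regions at 6 h, 1 was in the first and 3 were in the second 0 h list, and 0 overlapped H3K4me3. The median lengths on X were 311.5 and 307 bp, near the 300 bp of a single extended read, with a median of 14 fragments. The 0 h replicates listed 66 and 120 X regions, of which 20 of the first were in the second. The local background was at least 2 times the genome-wide one at 16 of the 34 and 14 of the 27, against 21.4% and 23.6% of all regions.

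The Hox clusters, the targets of Polycomb that the series is about, held 0 H3K27me3 regions at 6 h and 3 at 12 h. They were absent from every other H3K27me3 list. A pair lay in HoxB, chr11:96057178-96057477 with 18 fragments and chr11:96125666-96125965 with 29, and 1 in HoxD, chr2:74586535-74586882 with 27. The last overlapped Ring1b in the second 0 h replicate. The 0 h replicates held 6 and 15 regions in the clusters and the 72 h list 0, while Ring1b had 51 and 33 at 0 h. H3K4me3 regions in the clusters numbered 21 at 6 h and 38 at 12 h, with 4 and 14 of them in HoxB. The local background at the listed Hox regions was high. At the 3 regions it was 5.00 to 8.15 times the genome-wide value at 12 h, so that 29 fragments gave a fold of only 3.96, against a median fold of 6.48 over the list. At the 0 h regions it was 4.13 to 6.24 times in the first and 9.54 to 14.3 times in the second replicate. No value is known for clusters without a listed region, so the count of 0 at 6 h sets no level of H3K27me3 there.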

How the data were processed

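Each library came as 1 list of peaks deposited by the authors on mm9. Per the submitters' processing notes, MACS2 2.1.0, SAMtools 0.1.19 and Bowtie 1.1.0 were used for ChIP-seq libraries. Those notes name Bowtie2 2.1.0 and cutadapt 1.8.1 for ATAC-seq. The deposited fold is a ratio of summit pileup to local background, and the deposited values of −log10 p and of −log10 q are those of the peak caller, as read from the layout of the files. Per the file headers (peak names), reads were extended to 300 bp with a local window of 100 kb. From these, fold = (fragments + 1)/(background + 1) with a Poisson p value was solved for whole fragments, accepted within 0.001 of −log10 p. Where the rebuilt local background exceeded the genome-wide one, it was a whole number of reads over 100 kb (tolerance 0.05) for 100% of ChIP-seq peaks. Each library thus served as its own background. These steps were tested on simulated data. A fragment can be a PCR copy.

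Overlap means at least 1 shared base (Python 3.11.15, pandas 2.3.3, scipy 1.17.1). Named regions are those of the highest fold in each class, the longest, and all in Hox clusters, without those within 100 kb of input regions or off chromosomes 1 to 19 and X. Members, lists and alternatives were chosen with earlier results of these data known. The 5 kb classes, depth scaling, fragment ratios and chromosome counts were chosen after seeing values. Hox windows were placed in mm9 from general knowledge of the genome, and Ring1b regions were listed in each. No mm9 annotation or sequence was at hand, so no gene is assigned and no sequence shown. The 4C-seq samples, wild-type ChIP-seq and embryo lists were not used here.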

Additional observations from a re-analysis of the deposited data

How the results depend on the processing

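No paired analysis was possible because the libraries compared carry no replicate number. Of 48 recomputed values, 32 stayed within the interval of the reported one. The H3K4me3 difference stayed within it under all 5 planned settings. When regions had to share 50% of the smaller one, 50.8% of 6 h regions were listed at 12 h and 42.4% of 12 h regions at 6 h. With lists of equal length these shares were 51.6% and 51.3%, so the order of the 2 shares follows the number of regions. With a −log10 q of at least 5, 53.8% of 6 h regions were shared and the median lengths were 416 and 411 bp. The 12 h median was 409 bp in lists of equal length. Merging within 1 kb gave 59.8% of 6 h regions shared and median lengths of 452 and 443 bp. Leaving out 1 of the 0 h replicates moved the difference at 0 h between −3.87 and 0.276 points, a change of sign with the second replicate alone. Settings chosen after seeing the data moved 4 values. Merging within 5 kb gave 66.2% and 53.7% shared, 6 h regions that pass at the 12 h depth gave 45.1% of 12 h regions listed at 6 h, and the 12 h H3K4me3 list at both times gave 1.69 points. The causes of these moves were not tested. A region below the listing threshold leaves no value, so absence from a list sets no upper limit on H3K27me3.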
